A study of Mus musculus with 6 samples.

Results

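The late effect of IL-21 receptor loss on germinal center (GC) B cells was taken from 4 of the 6 libraries of the study, 1 WT and 1 *Il21r*-/- library on day 10 and the same pair on day 14 after immunization. The libraries were chosen by genotype and day alone, and the 2 libraries of day 7 were left out of the main comparison and used beside it. All mice were C57BL/6 by background strain, onto which the mutant mice had been backcrossed for several generations. All were given the hapten-carrier antigen NP-KLH in alum by intraperitoneal injection. *Il21r*-/- mice lack the receptor in every cell type, so that all cells from their marrow lack it and not B cells alone. Cells were sorted from the spleen as NP-binding, IgG1+ and B220+, negative for CD138, IgM, IgD, Gr1 and CD38. The series gives each library as 1 independent mouse, whereas the methods count more mice per genotype than there are libraries, so whether a library is a pool was not settled. By the methods, all experiments other than a BrdU/EdU labeling time course were done in irradiated Ly5.1 hosts given WT or *Il21r*-/- marrow, so these mice kept host cells that survive irradiation, such as stroma. Ages are given only as a range over the whole study.

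IL-21 is made by T follicular helper cells and signals through a receptor of 2 chains, the IL-21 receptor itself and the common gamma chain, to JAK1, JAK3 and chiefly STAT3. GC B cells move between a dark zone (DZ), where centroblasts divide and mutate their antibody genes, and a light zone (LZ), where centrocytes take up antigen, present it on MHC class II molecules and receive CD40 ligand, IL-4 and IL-21 from T cells. Cells leave as plasma cells, under Blimp-1, or as memory B cells. The comparison asks which of these programs differed between genotypes once the GC response was established. Each sorted sample is a mixture, so fewer cells of a type and less RNA per cell cannot be told apart in any value given here.

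The 4 libraries held between 21353438 and 26200417 reads counted on genes. All 8 GC B cell markers on a fixed list were present in each, at a sum of 2842 to 3781 CPM (counts scaled to the TMM-normalized library size). T cell markers summed to 1.77 to 2.66 CPM, with *Il21* and *Trat1* at 0 counts in all 4 libraries. The 12 myeloid markers summed to 3.38 and 8.98 CPM in WT on days 10 and 14 and to 3.76 and 15.5 CPM in *Il21r*-/-. Of these, *Adgre1* and *C1qa* were higher in *Il21r*-/- (edgeR quasi-likelihood test, adjusted p = 0.019 and 0.0348). *Lyz2* (log2 fold change −0.0727), *Csf1r* (0.405) and *C1qc* (1.40) did not pass the same test. *Itgam*, which was not tested, went the other way, with 30 and 18 counts in WT on days 10 and 14 and 17 and 2 in *Il21r*-/-. The granulocyte genes *Mpo* and *Elane* were at 0 counts throughout. Y-linked genes and *Xist* were both detected in every library. The direction of the difference followed gene length, and did so in opposite ways on the 2 days. Over all genes tested, the shortest of 12 equal bins (median length 635 bases) had a median log2 fold change of −0.0428 on day 10 and 0.19 on day 14, and the longest (7788 bases) 0.17 and −0.105. Averaged over both days the medians were 0.066 and 0.0196. *Lars2*, whose transcript holds a stretch like ribosomal RNA, had 3990 and 3690 CPM in WT and 2484 and 1990 CPM in *Il21r*-/-.

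**Figure D1:**
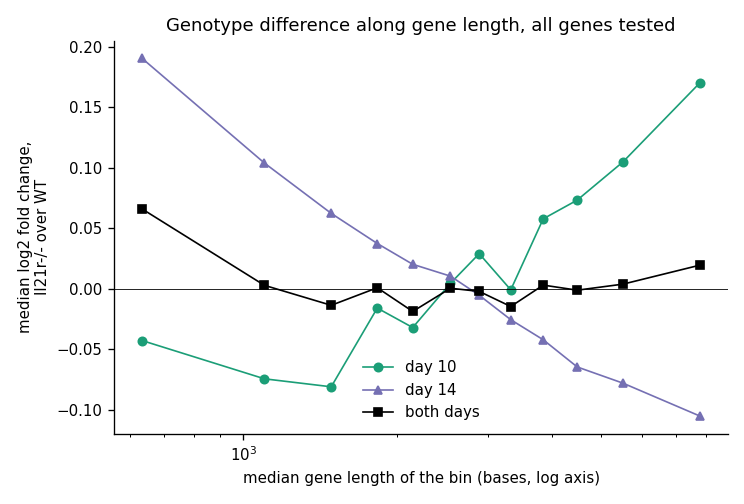
Median log2 fold change (*Il21r*-/- over WT, vertical axis) of all genes tested in 12 bins of equal size along gene length (horizontal axis, bases, log scale), for day 10 (circles), day 14 (triangles) and both days together (squares). The day 10 line climbs from −0.0428 to 0.17 and the day 14 line falls from 0.19 to −0.105, and they largely cancel in the mean of the days.

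Of 11005 genes tested, 1291 were higher in *Il21r*-/- late in the response (11.7%) and 846 were lower (7.69%), so that 19.4% were called, by edgeR's quasi-likelihood test on the 4 libraries with the day as a block and a false discovery rate of 0.05. The counts of calls in each list below are to be set against these shares. Log2 fold changes are *Il21r*-/- over WT throughout, positive where *Il21r*-/- was higher. The genes lower in *Il21r*-/- differed by less. At more than 2-fold there were 387 genes higher and 87 lower, and at more than 4-fold 104 higher and 26 lower. The median log2 fold change over all genes was 0.00409. All 2137 called genes had 1 sign on both days, which a test of the mean of the days favors, against 71.5% of all genes tested. The values of the 2 genotypes did not overlap for 1930 of the called genes and for 43% of all genes tested. Where called genes are said below to be apart between genotypes, this describes their values and is not further support. With 1 residual degree of freedom, the error of each gene was mostly borrowed from the other genes. That residual is the disagreement between the genotype differences of day 10 and day 14. The p-values thus measure how alike the difference was on the 2 days, not the spread between mice or replicate libraries.

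The number of calls depended on the design far more than the directions did. Dropping the day term left 190 genes, 147 higher and 43 lower. A likelihood ratio test with dispersions from all 6 libraries, which is close to the test of the study's methods, called 968 (710 higher, 258 lower), of which 958 were among the 2137. DESeq2's Wald test called 1063, and a fit with gene length as an offset, chosen after seeing the data, called 3708, of which 2129 were among the 2137. Leaving out 1 library, without the day block, gave 333 genes with WT of day 10 left out, 964 with *Il21r*-/- of day 10, 275 with WT of day 14 left out and 978 with *Il21r*-/- of day 14 left out. Tested day by day with the 6-library dispersions, 341 genes (3.1%) were called on day 10, 286 of them higher, and 361 (3.28%) on day 14, 281 of them higher. The 230 genes called on both days were 67.4% of the day 10 calls and 63.7% of the day 14 calls, and each had the same direction on both.

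**Figure D2:**
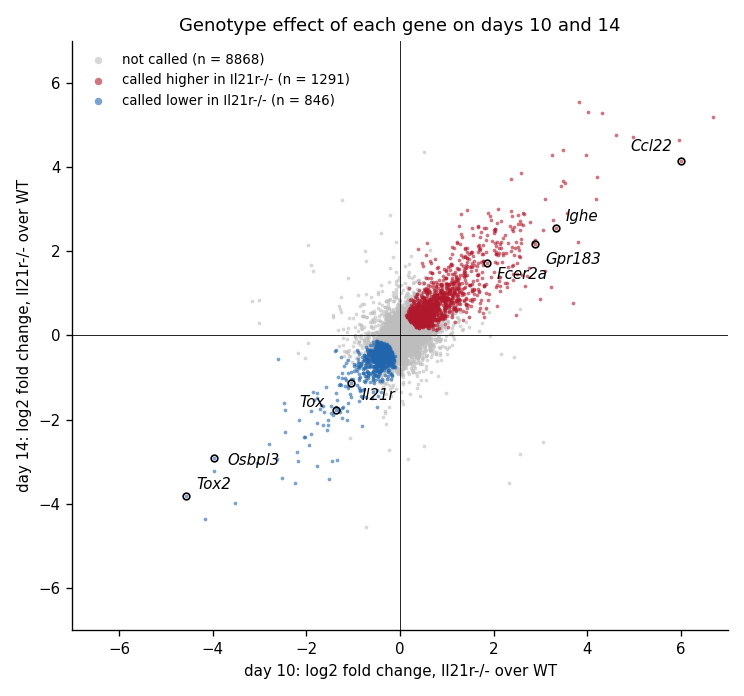
Log2 fold change (*Il21r*-/- over WT) of each gene on day 10 (horizontal axis) and day 14 (vertical axis), with the 1291 genes called higher late in red, the 846 called lower in blue and the rest in gray. Calls lie in the quadrants where both days share a sign, and the red points reach farther from 0 than the blue, with *Ccl22* at 5.99 and 4.15 and *Tox2* at −4.57 and −3.80; 10 genes lie outside the axis limits of 7 and are not shown.

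The targeted gene checked the labels. *Il21r* was at 263.4 and 251.6 CPM in WT on days 10 and 14 and at 127.3 and 114.1 CPM in *Il21r*-/-, a log2 fold change of −1.04 on day 10 and −1.13 on day 14. Reads over the whole gene were counted, so the value does not show which exons remained. Here and below, values in the 2 libraries of a genotype are given as day 10 and then day 14.

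Cell cycle genes, which were lower in *Il21r*-/-, and MHC class II genes, which were higher, both often carried a CCAAT box. Genes of G2 and mitosis are classically read from promoters that carry CCAAT boxes, bound by NF-Y, and a cell-cycle element with the core TTTGAA, and MHC class II genes from promoters whose Y box is an inverted CCAAT. Both motifs were searched on both strands (CCAAT, or ATTGG on the other strand, and likewise TTTGAA, or TTCAAA on the other strand, where the 2 motifs can overlap by at most 1 base) in the 250 bases before the start sites of RefSeq (GRCm38.p6). CCAAT was in 34.5% of all 27025 promoters and in 38.1% of the 8529 promoters of genes tested, against 68.6% (35 of 51) for G2/M genes, 59% (23 of 39) for G1/S genes, 69.2% (9 of 13) for MHC class II genes and 13% (3 of 23) for LZ genes. TTTGAA was present in 16.3% of all promoters and in 10.8% of the tested promoters, in 31.4% (16 of 51) of the G2/M promoters and in 0 of 13 MHC class II promoters. Both motifs stood together in 4.44% of the tested promoters and in 27.5% (14 of 51) for G2/M. Among all genes called, CCAAT was in 45.4% (301 of 663) of the promoters of genes lower in *Il21r*-/- and in 34.3% (341 of 993) of those higher. These are letter matches in a window, and no binding was measured. The sequences below show the pattern for *Top2a* (topoisomerase II alpha, chr11:99024190-99024439, minus strand) and *Kif11* (a spindle kinesin, chr19:37376132-37376381, plus strand), both lower in *Il21r*-/-, and for *H2-Aa* (an MHC class II alpha chain, chr17:34287824-34288073, minus strand) and *H2-Oa* (a chain of the peptide-loading regulator H2-O, chr17:34092129-34092378, plus strand), both higher. They were picked from called genes whose promoters held both motifs, for G2/M, or CCAAT, for MHC class II. They are therefore examples and do not stand for their lists. Each sequence reads 5′ to 3′ along the gene, with matches to either motif in capitals.
Top2a: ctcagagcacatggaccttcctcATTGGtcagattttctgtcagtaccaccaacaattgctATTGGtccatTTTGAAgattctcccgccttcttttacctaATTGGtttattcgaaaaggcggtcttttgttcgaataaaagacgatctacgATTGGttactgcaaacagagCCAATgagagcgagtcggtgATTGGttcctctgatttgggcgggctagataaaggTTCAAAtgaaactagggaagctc
Kif11: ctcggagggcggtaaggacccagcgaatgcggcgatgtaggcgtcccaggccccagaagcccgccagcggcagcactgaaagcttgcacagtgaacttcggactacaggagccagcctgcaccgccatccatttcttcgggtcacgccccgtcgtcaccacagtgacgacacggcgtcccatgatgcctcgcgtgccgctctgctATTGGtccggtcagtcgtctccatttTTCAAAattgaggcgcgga
H2-Aa: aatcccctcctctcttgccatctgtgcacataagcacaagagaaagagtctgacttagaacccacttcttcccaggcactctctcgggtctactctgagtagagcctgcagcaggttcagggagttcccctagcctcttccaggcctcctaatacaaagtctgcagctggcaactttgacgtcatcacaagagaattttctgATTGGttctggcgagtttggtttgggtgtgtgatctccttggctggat
H2-Oa: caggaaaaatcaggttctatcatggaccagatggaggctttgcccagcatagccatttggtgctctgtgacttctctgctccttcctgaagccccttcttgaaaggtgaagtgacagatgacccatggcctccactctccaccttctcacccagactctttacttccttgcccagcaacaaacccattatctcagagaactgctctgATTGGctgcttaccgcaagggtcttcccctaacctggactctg

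In these letters, *Top2a* carried 6 CCAAT matches and 2 TTTGAA matches, of which 1 lay among the CCAAT matches and 1 between them and the start site, *Kif11* carried 1 match of each kind near its start site, and both MHC class II promoters carried CCAAT alone.

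Mitotic genes were lower in *Il21r*-/- as a group. Of 59 genes of G2 and mitosis tested, 50 were called lower and none higher, against 7.69% lower over all genes, and all 59 had a negative value. The median log2 fold change was −0.462 (−0.412 on day 10, −0.459 on day 14), beside 0.00409 for all genes. *Knl1*, a kinetochore scaffold, had the largest change, from 20.0 and 22.2 CPM in WT to 11.98 and 8.01 CPM in *Il21r*-/- (log2 fold change −1.09, standard error 0.17, edgeR quasi-likelihood adjusted p = 0.00031). *Spag5*, a spindle protein, was at 77.4 and 74.6 CPM in WT and 45.9 and 38.1 CPM in *Il21r*-/- (−0.86, standard error 0.11, adjusted p = 4.3e-05 by the same test). In both genes the genotypes were well apart on each day.

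*Top2a*, which untangles sister chromatids, had 478 and 451 CPM in WT and 332 and 265 CPM in *Il21r*-/- (log2 fold change −0.65). *Kif11* had 175 and 181 CPM against 127 and 110 CPM (−0.59), and *Dlgap5*, a spindle assembly factor, 46.3 and 53.3 CPM against 31.2 and 27.9 CPM (−0.75). The kinesin *Kif20b* was at 16.2 and 23.8 CPM in WT and 12.2 and 9.39 CPM in *Il21r*-/- (−0.87). None of these 4 genes overlapped between genotypes, as was so for 1930 of the 2137 genes called. *Ccnb1*, the mitotic cyclin B1, was at 231 and 248 CPM in WT and 146 and 190.1 CPM in *Il21r*-/- (−0.52, edgeR quasi-likelihood adjusted p = 0.00125). *Mki67*, which encodes the proliferation antigen Ki67, was at 303 and 404 CPM in WT and 262 and 192 CPM in *Il21r*-/-. Its log2 fold change was −0.20 on day 10 and −1.06 on day 14, and it did not pass the test (−0.64, standard error 0.25, adjusted p = 0.216). The difference grew with gene length on day 14. G2/M genes of at least 5000 bases had a median of −0.394 on day 10 and −0.952 on day 14 (n = 10), and those under 2000 bases −0.376 and −0.236 (n = 10), so the size on a single day moved with length, whose part was not tested, while both ends kept the direction. The count of 50 fell to 19 with the 6-library dispersions and to 0 without the day block, and leaving out WT or *Il21r*-/- of day 10, then WT or *Il21r*-/- of day 14, left 2, 23, 0 and 10.

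Genes of the G1/S transition and DNA replication moved the same way. Of 48 tested, 40 were lower in *Il21r*-/- and none higher, with a median log2 fold change of −0.389 (−0.406 on day 10, −0.329 on day 14). *Mcm10*, which helps activate the replicative helicase, had 62.3 and 71.7 CPM in WT and 41.5 and 36.1 CPM in *Il21r*-/- (−0.79, standard error 0.12, edgeR quasi-likelihood adjusted p = 0.00024). *Orc1*, of the origin recognition complex, had 18.4 and 22.9 CPM against 12.4 and 12.5 CPM (−0.73), *Gins1*, of the helicase complex, 46.4 and 50.8 CPM against 27.5 and 33.7 CPM (−0.67), and *Ccne1*, the S-phase cyclin E1, 56.6 and 56.6 CPM against 34.9 and 37.8 CPM (−0.64). Each of the 4 was lower in both *Il21r*-/- libraries than in either WT library. *Rrm2*, the small subunit of ribonucleotide reductase, was also lower, at 449 and 440.1 CPM against 303 and 328 CPM (−0.50). Members that did not pass the test included the transcription factor *E2f2* (0.02) and *Tyms* (thymidylate synthase, −0.11). The G1 cyclins of B cells did not pass either, *Ccnd2* at −0.24 (adjusted p = 0.322) and *Ccnd3* at 0.15 (adjusted p = 0.243, edgeR quasi-likelihood test). The count of 40 was 11 with the 6-library dispersions, 0 without the day block, 0 without either WT library, 7 without *Il21r*-/- on day 10 and 10 without *Il21r*-/- on day 14.

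Hypermutation and repair genes followed in smaller number. Of 36 tested, 16 were lower and none higher (median −0.3). *Polh*, the error-prone polymerase eta, had 251 and 228 CPM in WT and 192 and 170.2 CPM in *Il21r*-/- (log2 fold change −0.40, adjusted p = 0.0047), *Msh6*, of the mismatch recognition dimer, 227 and 217 CPM against 161 and 148 CPM (−0.52, adjusted p = 0.0008), and *Ung*, the uracil glycosylase, 73.5 and 74.9 CPM against 53.8 and 59.8 CPM (−0.39, adjusted p = 0.014, all edgeR's quasi-likelihood test). *Rif1*, a double-strand break factor, was at −0.64 and the helicase *Blm* at −0.60. Many of these genes also serve DNA replication. The count of 16 fell to 5 with the 6-library dispersions, 0 without the day block, 0 without either WT library, 4 without *Il21r*-/- on day 10 and 1 without *Il21r*-/- on day 14.

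Myc targets and ribosome biogenesis genes were lower in 16 of 56 cases and higher in none, with a median of −0.211 and smaller differences than the cell cycle lists. *Nolc1*, a nucleolar phosphoprotein, had 69.7 and 74.8 CPM in WT and 52.0 and 42.2 CPM in *Il21r*-/- (log2 fold change −0.62, standard error 0.11, edgeR quasi-likelihood adjusted p = 0.0013). *Hspd1*, the mitochondrial chaperonin, had 222 and 257 CPM against 168 and 164 CPM (−0.52), and *Ncl*, nucleolin, 562 and 696 CPM against 494 and 410.4 CPM (−0.47). *Myc* itself was at 31.3 and 33.3 CPM in WT and 39.5 and 31.5 CPM in *Il21r*-/-, with its genotypes overlapping (0.13, standard error 0.12, adjusted p = 0.508). Only 2 of the 16 calls held with the 6-library dispersions, and 0, 3, 0 and 1 when WT day 10, *Il21r*-/- day 10, WT day 14 and *Il21r*-/- day 14 were left out.

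Light zone genes were higher. Of 36 LZ genes tested, 22 were called higher and none lower, against 11.7% higher over all genes, with a median of 0.629 (0.501 on day 10, 0.692 on day 14). *Cd83*, a surface marker of centrocytes, had 383 and 455 CPM in WT and 792 and 927 CPM in *Il21r*-/- (log2 fold change 1.04, standard error 0.09, edgeR quasi-likelihood adjusted p = 9.5e-07). *Cd86*, the costimulatory ligand by which centrocytes are gated, had 173 and 217 CPM against 293 and 344 CPM (0.71, standard error 0.09, adjusted p = 4.2e-05). *Ebi3*, a chain of IL-27 and IL-35, had 4.89 and 5.25 CPM against 12.7 and 14.9 CPM (1.44). In all 3 genes both *Il21r*-/- libraries were above both WT libraries. *Ccl22*, a chemokine that draws CCR4+ T cells, had 12 and 24 counts in WT and 824 and 500 in *Il21r*-/-, 0.489 and 1.147 CPM against 31.3 and 20.3 CPM (4.999, standard error 0.40, adjusted p = 2.5e-05).

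The dark zone list, written without cell cycle genes, had a median of −0.0973. Of 19 tested, 1 was higher and 3 lower, so that the share called was near the 19.4% over all genes, and without the day block none was called. *Cxcr4*, which holds centroblasts in the DZ, had 261 and 395 CPM in WT and 279 and 381 CPM in *Il21r*-/-, so that the day separated the libraries more than the genotype (0.02, edgeR quasi-likelihood adjusted p = 0.896). *Foxo1*, a transcription factor of the DZ, had 148 and 130.4 CPM against 172 and 139.9 CPM (0.16, adjusted p = 0.255), and *Bcl6*, the master factor of the GC, 238 and 189.5 CPM against 219 and 147 CPM (−0.24, adjusted p = 0.0868). The 3 genes lower in *Il21r*-/- were *Ezh2*, a histone H3 lysine 27 methyltransferase (173 and 182 CPM against 129 and 127 CPM, −0.47), *Nsd2*, an H3 lysine 36 methyltransferase (−0.45), and *Polh*. *Foxp1*, whose product restrains GC entry, was the gene higher, at 38.0 and 35.5 CPM against 61.7 and 39.2 CPM (0.43, adjusted p = 0.032, edgeR quasi-likelihood test). Among LZ genes the 22 calls became 16 with the 6-library dispersions, 5 without the day block, and 7, 19, 7 and 15 with the libraries left out in that order.

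**Figure D3:**
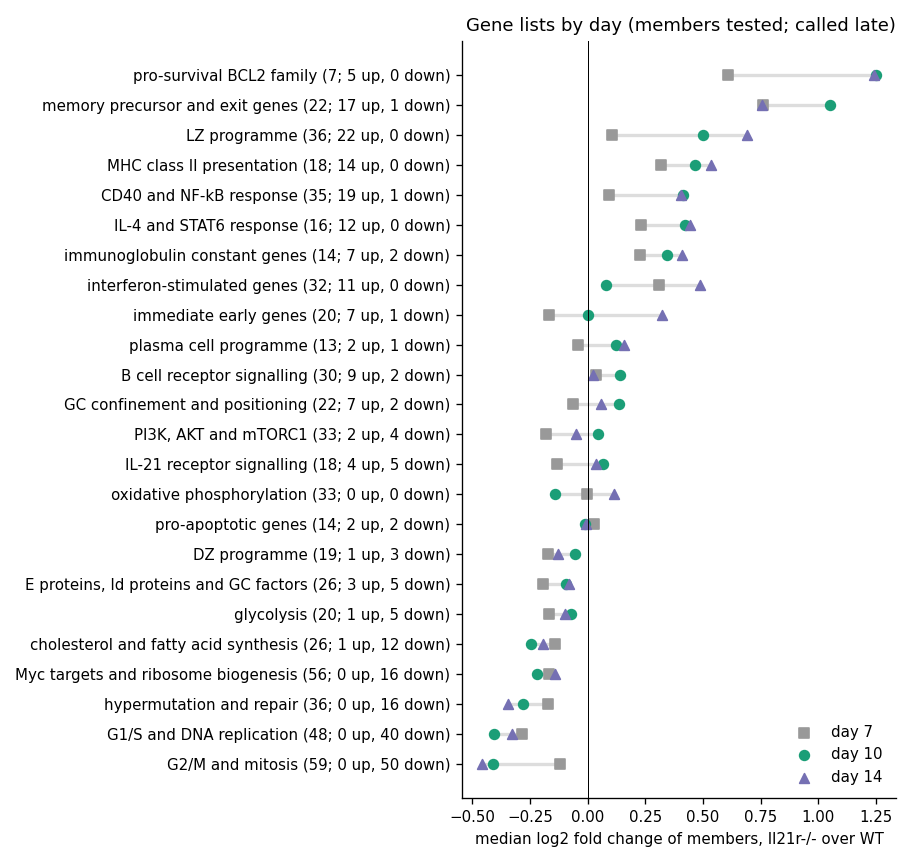
Median log2 fold change (*Il21r*-/- over WT, horizontal axis) of each gene list on day 7 (squares), day 10 (circles) and day 14 (triangles), with the members tested and the number called higher and lower late beside each name. The BCL2 family, memory, LZ, MHC class II, CD40 and IL-4 lists lie right of 0 on all 3 days and the G2/M, G1/S, repair and Myc target lists left of it; the median of the G2/M list was −0.122 on day 7 and −0.459 on day 14.

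Responses to CD40 and NF-kB, by which T cells sustain centrocytes, were higher at 19 of 35 genes and lower at 1 (median 0.428). Several inhibitors that NF-kB itself induces were included, *Nfkbia* (72.3 and 82.8 CPM in WT, 107.6 and 141 CPM in *Il21r*-/-, log2 fold change 0.67), *Nfkbie* (0.43) and the ubiquitin editor *Tnfaip3* (20.4 and 19.6 CPM against 40.0 and 36.0 CPM, 0.92). *Cd80*, which encodes, like *Cd86*, a ligand of CD28, had 3.01 and 3.92 CPM in WT and 12.7 and 18.0 CPM in *Il21r*-/- (2.14, standard error 0.17, edgeR quasi-likelihood adjusted p = 3.9e-07). *Marcks*, a substrate of protein kinase C, had 12.3 and 8.74 CPM against 35.2 and 34.2 CPM (1.73). *Cd40*, the receptor, had 98.6 and 107.9 CPM against 130.0 and 175 CPM (0.55). Each of these genes was higher in both *Il21r*-/- libraries than in either WT library. The NF-kB subunits *Rel* (0.27), *Rela* (0.09) and *Nfkb1* (0.10) did not pass the test, whereas *Nfkb2* did (0.43). *Bcl3*, an atypical inhibitor, was the gene lower, at 18.3 and 17.2 CPM against 13.0 and 13.8 CPM (−0.41). The 19 calls became 14 with the 6-library dispersions, 5 without the day block, and 6, 14, 7 and 13 without WT day 10, *Il21r*-/- day 10, WT day 14 and *Il21r*-/- day 14.

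The IL-4 and STAT6 list was higher at 12 of 16 genes and lower at none (median 0.41). Lists share members, so their counts are not separate results. *Ccl22* is in this list, the LZ list and the CD40 list, and *Fcer2a* in this list and the LZ list. *Cd80* is in the CD40 and memory lists, and *Bcl2* in the memory and BCL2 family lists. *Fcer2a* (Entrez 14128, chr8:3680280-3694174), which encodes the low-affinity IgE receptor CD23, a classic IL-4 target, had 219.5 and 157 CPM in WT and 788 and 517 CPM in *Il21r*-/-. Its log2 fold change was 1.78 (standard error 0.09, edgeR quasi-likelihood adjusted p = 6.3e-09), and both *Il21r*-/- libraries lay above both WT libraries. *Ighe* (chr12:113269263-113273248), the constant region of IgE, whose germline transcript IL-4 induces, had 12.3 and 18.4 CPM against 122.7 and 107.9 CPM (2.93, standard error 0.17, adjusted p = 1e-05). Germline and switched transcripts were not told apart, nor were reads of neighboring constant genes. *Gadd45g* had 2.81 and 1.96 CPM against 6.73 and 6.71 CPM (1.495) and *Il4i1*, an IL-4-induced oxidase, 1.34 and 1.34 CPM against 3.42 and 3.58 CPM (1.38). The receptor chain *Il4ra* (0.34) and *Stat6* (0.29) were also called higher, by less. *Il4ra* lies just upstream of *Il21r* on chromosome 7, ending at 125579474, with the start of *Il21r* at 125603252. The 12 calls became 7 with the 6-library dispersions, which also called 1 gene lower, 4 without the day block, and 5, 7, 4 and 6 with the libraries left out in the order above.

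MHC class II presentation was higher at 14 of 18 genes and lower at none (median 0.442). *H2-Aa* had 4613 and 5078 CPM in WT and 7250 and 8681 CPM in *Il21r*-/- (log2 fold change 0.71, standard error 0.10, edgeR quasi-likelihood adjusted p = 9.9e-05). *H2-Oa* had 177 and 167 CPM against 330.0 and 331 CPM (0.94), and *H2-DMa*, of the peptide editor H2-M, 491 and 445 CPM against 773 and 811 CPM (0.76). Genotypes were apart at each of these. The transactivator *Ciita*, which switches on the whole group, had 201 and 178 CPM against 301 and 210.0 CPM (0.41, adjusted p = 0.0083), and its partners were split, with *Rfx5* called higher (0.37) and *Rfxank* (0.34, adjusted p = 0.0571) and *Rfxap* (−0.16, adjusted p = 0.453, edgeR quasi-likelihood test) not called. *Lgmn*, an endosomal protease, and *Marchf1*, which removes class II from the surface, were at −0.06 and 0.02 and did not pass. Class II alpha and beta chains have close relatives between which reads can be split. The 14 calls became 8 with the 6-library dispersions, 1 without the day block and 0, 5, 0 and 6 with 1 library left out.

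Genes of memory precursors and GC exit had the second highest median of the lists, 0.904 (1.05 on day 10, 0.755 on day 14), with 17 of 22 higher and 1 lower. *Gpr183* (Entrez 321019, chr14:121952331-121965193), the oxysterol receptor EBI2 that draws B cells out of the follicle center, had 5.38 and 4.87 CPM in WT and 39.7 and 21.9 CPM in *Il21r*-/- (log2 fold change 2.55, standard error 0.17, edgeR quasi-likelihood adjusted p = 1.1e-07). *Il9r*, the IL-9 receptor of memory B cells, had 8.10 and 10.1 CPM against 43.8 and 59.8 CPM (2.50, standard error 0.13, adjusted p = 6.3e-09). *Pdcd1lg2*, which encodes PD-L2, had 9.20 and 6.45 CPM against 27.3 and 20.4 CPM (1.61). The homing genes were also higher, with *Ccr7* at 1.59 and 2.15 CPM against 8.48 and 5.85 CPM (1.94), *Ccr6* at 3.22 and 1.81 CPM against 10.9 and 5.77 CPM (1.72), and *S1pr1*, the egress receptor, at 14.7 and 9.98 CPM against 34.9 and 22.9 CPM (1.23). All were higher in both *Il21r*-/- libraries than in either WT library. *Nt5e*, CD73, was the gene lower, at 37.3 and 58.2 CPM against 23.0 and 31.1 CPM (−0.80). *Cd38*, on which the cells were sorted as negative, was at 5.99 and 2.34 CPM against 11.6 and 3.70 CPM (0.84), with the genotypes overlapping across days. The 9 markers of follicular and other non-GC B cells, which share *Ccr7*, *Klf2*, *S1pr1*, *Cd38* and *Bcl2* among others with this list, summed to 551.6 and 423 CPM in WT and 591.5 and 448 CPM in *Il21r*-/-, and their part in the result was not tested. The 17 became 12 with the 6-library dispersions, 7 without the day block and 13, 10, 8 and 17 with 1 library left out.

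The list for GC confinement and positioning holds receptors of both retention and exit with their signaling partners. Of 22 tested, 7 were higher and 2 lower, against 11.7% and 7.69% over all genes (median 0.0571). Of the 7, *Gpr183*, *Ccr7*, *Ccr6* and *S1pr1* are the exit and homing receptors given above, *Cxcr5*, the follicular homing receptor, was at 0.27, and *Rgs1* (0.99) and *Rgs2* (0.56) are regulators of G protein signals. The count was 2 without the day block and 5, 6, 4 and 4 with 1 library left out. *S1pr2*, the confinement receptor, was at 556 and 475 CPM in WT and 457 and 449 CPM in *Il21r*-/- (log2 fold change −0.18, edgeR quasi-likelihood adjusted p = 0.172), and its signal partners *Gna13* (0.01) and *Arhgef1* (0.09) did not pass either. *Rgs10*, a brake on G protein signals, was lower, with 68.3 and 127 CPM against 37.0 and 62.9 CPM (−0.95, adjusted p = 9.6e-06), as was *Cxcr3* at 35 and 12 counts against 15 and 4 (−1.45, adjusted p = 0.039, edgeR quasi-likelihood test).

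Pro-survival members of the BCL2 family had the highest median, 1.23, with 5 of 7 higher and none lower. *Bcl2* had 0.814 and 1.05 CPM in WT and 4.79 and 3.78 CPM in *Il21r*-/- (log2 fold change 2.20, standard error 0.31, edgeR quasi-likelihood adjusted p = 8.3e-05). *Bcl2l1*, which encodes BCL-XL, had 19.8 and 19.1 CPM against 47.0 and 44.1 CPM (1.23, standard error 0.12, adjusted p = 3e-06). The 3 remaining calls were copies of the A1 gene, with *Bcl2a1b* at 80.9 and 115 CPM against 206 and 299 CPM (1.36), and since near-identical copies share reads, they count as little more than 1 gene. All 5 were separate between genotypes. *Mcl1*, on which GC B cells depend, was at 513 and 500.2 CPM against 536 and 543 CPM and did not pass (0.09). The 5 calls held with the 6-library dispersions and became 2 without the day block and 4 without WT on day 10, and the other leave-outs kept all 5. Of 14 pro-apoptotic genes 2 were higher and 2 lower, against 11.7% and 7.69% over all genes. Without the day block 0 of these calls held. *Bmf* had 44.0 and 40.3 CPM against 95.8 and 66.5 CPM (0.93) and *Bbc3*, PUMA, 6.11 and 7.64 CPM against 9.31 and 13.8 CPM (0.73), whereas *Bcl2l11*, BIM, had 36.1 and 29.0 CPM against 24.5 and 20.6 CPM (−0.53).

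**Figure D4:**
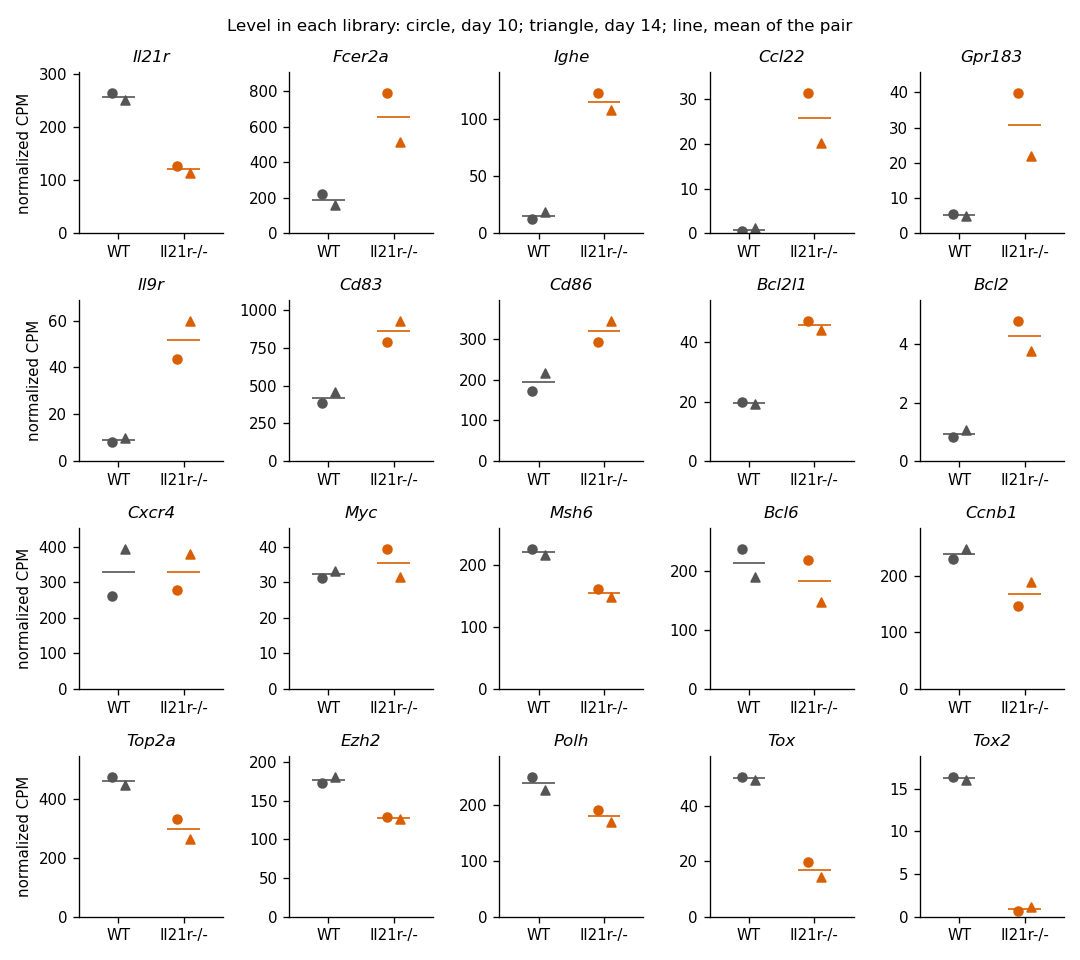
TMM-normalized CPM (vertical axes, each from 0) of 20 genes in the WT and *Il21r*-/- libraries of day 10 (circles) and day 14 (triangles), with a line at the mean of each pair. *Fcer2a*, *Ighe*, *Gpr183* and *Bcl2* sit higher in both *Il21r*-/- libraries, *Tox*, *Tox2* and *Top2a* lower, while the circles and triangles of *Cxcr4* and *Myc* overlap between genotypes.

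The list of IL-21 receptor signaling also holds receptor chains of other cytokines, such as *Il10ra* and *Il6st*, and *Prdm1*. Its members went both ways, 4 of 18 higher and 5 lower, against 11.7% and 7.69% over all genes. Besides *Il21r*, the kinase *Jak3* (56.8 and 50.7 CPM in WT, 41.6 and 34.3 CPM in *Il21r*-/-, log2 fold change −0.51) and *Stat3* (112 and 96.5 CPM against 95.9 and 70.2 CPM, −0.34) were lower, while the common gamma chain *Il2rg* was higher (94.8 and 80.1 CPM against 127.0 and 110.1 CPM, 0.44), as was *Il10ra* (16.6 and 6.59 CPM against 34.8 and 20.6 CPM, 1.32). *Socs3*, a feedback target of STAT3, was too low to be tested, with 25 and 12 counts in WT and 1 and 0 in *Il21r*-/-. *Prdm1*, which encodes Blimp-1, had 45 and 34 counts in WT and 16 and 17 in *Il21r*-/- (−1.41, standard error 0.37, edgeR quasi-likelihood adjusted p = 0.0124). Plasma cells were excluded from the sort by CD138, and of the plasma cell list 2 of 13 were higher, *Xbp1* (216 and 202 CPM against 274 and 272 CPM, 0.38) and *Irf4* (21.7 and 23.0 CPM against 35.8 and 38.2 CPM, 0.73), and only *Prdm1* lower, a share called near the 19.4% over all genes. Without the day block 0 of these 3 calls held, and of the 9 calls in the IL-21 list 1 did. Plasma cell genes too low to be tested went both ways. *Sdc1* had 21 and 18 counts in WT and 13 and 9 in *Il21r*-/-, and *Tnfrsf17* 17 and 10 against 4 and 2. *Fkbp11* had 7 and 10 counts against 15 and 12.

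Among GC transcription factors, 5 of 26 were lower and 3 higher (2 and 0 without the day block), against 7.69% lower and 11.7% higher over all genes. *Tox2* (chr2:163203058-163324172) had 404 and 336 counts in WT and 18 and 28 counts in *Il21r*-/-, or 16.4 and 16.1 CPM against 0.684 and 1.14 CPM (log2 fold change −4.16, standard error 0.25, edgeR quasi-likelihood adjusted p = 9.2e-09). Its relative *Tox*, an HMG-box factor like it, had 50.5 and 49.1 CPM against 19.5 and 14.2 CPM (−1.57, standard error 0.13, adjusted p = 6.6e-07). *Tbx21*, T-bet, had 43 and 21 counts against 10 and 3 (−2.44, adjusted p = 0.0017, edgeR quasi-likelihood test). *Mef2b* (−0.35) and *Tcf4* (−0.46) were lower by less. *Pax5*, which fixes B cell identity, was higher, at 82.9 and 69.2 CPM against 149.9 and 127 CPM (0.86), as was *Bhlhe40*, a repressor of GC reactions, at 4.03 and 2.58 CPM against 8.71 and 4.96 CPM (1.04). *Id2*, *Id3* and *Tcf3* did not pass, at −0.13, −0.09 and −0.20.

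Antigen receptor signaling genes were higher at 9 of 30 and lower at 2 (median 0.0792), against 11.7% and 7.69% over all genes. The share lower was thus near that over all genes. The 9 became 4 with the 6-library dispersions, 1 without the day block and 1, 1, 1 and 6 with WT day 10, *Il21r*-/- day 10, WT day 14 and *Il21r*-/- day 14 left out. The inhibitory coreceptors were split, with *Cd72* at 26.4 and 12.5 CPM in WT and 96.0 and 92.5 CPM in *Il21r*-/- (log2 fold change 2.34, standard error 0.28, edgeR quasi-likelihood adjusted p = 0.0124) and *Siglecg* at 101 and 92.6 CPM against 151 and 135 CPM (0.56), whereas *Cd22* (0.20) and *Fcgr2b* (−0.06) did not pass. *Syk*, the proximal kinase, was lower (−0.32), as was *Pik3cd*, the PI3K delta catalytic subunit, at 249 and 206 CPM against 187 and 140.3 CPM (−0.49). In the PI3K, AKT and mTORC1 list, where the share called was near the 19.4% over all genes, 4 of 33 were lower, *Pik3cd*, *Pik3cg* (−0.32) and *Akt1* (404 and 338 CPM against 337 and 266 CPM, −0.30) among them, and 2 higher, *Foxo3* (0.99) and the phosphatase *Inpp4b* (0.81). Without the day block none of these 6 calls held. Immediate early genes were higher at 7 of 20, against 11.7% over all genes. *Ier5* was at 61.7 and 48.2 CPM against 122 and 139 CPM (1.25). The antiproliferative gene *Btg2* was at 126 and 96.7 CPM against 233 and 207 CPM (0.99). *Atf3* was lower, at 31 and 48 counts against 12 and 7 (−2.19). The 7 became 2 with the 6-library dispersions, 1 without the day block and 2, 6, 0 and 3 with the libraries left out in the same order.

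Antibody constant genes were higher at 7 of 14 and lower at 2, against 11.7% and 7.69% over all genes. *Ighg1*, the isotype of the sort, had 3271 and 2730.0 CPM in WT and 3830.0 and 3004 CPM in *Il21r*-/- (log2 fold change 0.18, edgeR quasi-likelihood adjusted p = 0.189). The lambda constant genes *Iglc2* (364 and 360.5 CPM against 602 and 534 CPM, 0.65) and *Iglc3* (0.61) are near-identical and share reads, and NP responses in this strain are mostly lambda. *Ighm* was lower at 378 and 260.3 CPM against 273 and 219.9 CPM (−0.36), with the genotypes overlapping across days and although IgM+ cells had been gated out, and *Ighg3* too (−0.55). The 7 higher became 3 with the 6-library dispersions, 1 without the day block and 3, 1, 1 and 3 with 1 library left out.

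Metabolic lists had smaller medians. Of 26 cholesterol and fatty acid synthesis genes, 12 were lower and 1 higher (median −0.202). *Elovl6*, a fatty acid elongase, had 204 and 181 counts in WT and 61 and 73 counts in *Il21r*-/- (log2 fold change −1.69, standard error 0.20, edgeR quasi-likelihood adjusted p = 2.4e-05). The SREBP2 targets *Insig1* (140 and 131 CPM against 94.5 and 91.6 CPM, −0.54), *Fdps* (−0.55), *Idi1* (−0.43) and *Hmgcs1* (−0.41) were lower together, *Srebf2* itself was at −0.01 and did not pass, and *Scd1* was the gene higher (0.33). The 12 became 6 with the 6-library dispersions, 1 without the day block, and 1, 3, 1 and 5 with 1 library left out. In glycolysis 5 of 20 were lower, against 7.69% over all genes, led by *Ldha* (1000.0 and 1107 CPM against 690.2 and 855 CPM, −0.45). The glucose transporter *Slc2a3* was higher (0.70). The 5 became 1 with the 6-library dispersions and 0 without the day block or with any library left out. Oxidative phosphorylation had no call among 33 genes, and 6 lower with the length offset; by edgeR's quasi-likelihood test 2 had an unadjusted p under 0.05, and DESeq2 called 0.

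Interferon-stimulated genes were higher at 11 of 32, against 11.7% over all genes, and lower at none. Their median was 0.0787 on day 10 and 0.486 on day 14. *Ifi27l2a* had 56.7 and 75.0 CPM in WT and 105.8 and 168.5 CPM in *Il21r*-/- (log2 fold change 1.03, standard error 0.10, edgeR quasi-likelihood adjusted p = 3.9e-06), and *Ddx58*, the RNA sensor RIG-I, 6.03 and 2.77 CPM against 12.5 and 6.34 CPM (1.11). Members of the guanylate-binding family, which share reads, were also higher (*Gbp5* 1.18, *Gbp3* 0.86, *Gbp9* 0.77), while *Isg15* (0.04) and *Irf7* (0.08) did not pass. The 11 calls became 9 with the 6-library dispersions, 0 without the day block, and 3, 4, 1 and 6 with 1 library left out. Under DESeq2 size factors 1 gene was also called lower.

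Of the genes with the largest late differences at a mean of 10 CPM or more, several stood outside the lists. *Cdkn2a*, which encodes the cell cycle inhibitors p16 and ARF from shared exons, had 117 and 54 counts in WT and 648 and 834 counts in *Il21r*-/-, or 4.76 and 2.58 CPM against 24.6 and 33.9 CPM (log2 fold change 2.97, standard error 0.32, edgeR quasi-likelihood adjusted p = 0.0025). *Cd36*, a scavenger receptor for lipids, had 24.1 and 14.5 CPM against 164 and 93.3 CPM (2.73, standard error 0.10, adjusted p = 3e-10). Macrophages express *Cd36* as well, and the summed myeloid markers given above were at or under 15.5 CPM, with their part in the difference not tested. *Zfp365* (2.26), *Rnf122* (2.23), *Plbd1* (2.18) and *Ephx1*, an epoxide hydrolase (13.1 and 10.1 CPM against 47.0 and 52.6 CPM, 2.10), completed the upper group with *Rps15a-ps8*, a ribosomal pseudogene that can take reads of its parent (0.285 and 0.143 CPM against 68.4 and 87.9 CPM, 8.43).

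On the lower side, *Osbpl3*, a lipid transfer protein, had 30.2 and 47.7 CPM in WT and 1.90 and 6.30 CPM in *Il21r*-/- (log2 fold change −3.35, standard error 0.22, edgeR quasi-likelihood adjusted p = 9.7e-06). *Slpi*, a secreted protease inhibitor, had 149 and 193 CPM against 57.6 and 58.6 CPM (−1.54), *Serpinf1* 27.1 and 33.8 CPM against 7.83 and 7.89 CPM (−1.94), *Tent5c*, which lengthens the poly(A) tails of immunoglobulin mRNA, 21.5 and 20.8 CPM against 4.83 and 5.12 CPM (−2.09), and *Fads2*, a fatty acid desaturase, 24.2 and 21.6 CPM against 7.83 and 6.06 CPM (−1.72). *Hgsnat* (−2.12) followed, and each was lower in both *Il21r*-/- libraries than in either WT library. A further 4 lay on the chromosome of *Il21r*. *Trim12a* (−4.28), *Trim5* (−3.05) and *Trim34a* (−2.70) are neighbors on chromosome 7 from 104244448 to 104315558 and share reads with their relatives, and *Pde2a* (−2.75) starts at 101421691, with *Il21r* from 125603252. Within 10 Mb on either side of *Il21r*, 21 of 153 genes tested were higher and 16 lower, against 11.7% and 7.69% over all genes. Among those higher, *Gprc5b*, which starts at 118972040, had 1 and 2 counts in WT and 123 and 90 in *Il21r*-/- (5.88). The 4 genes above lie outside that window, so the numbers called within it do not bear on them. Whether the difference of any of these genes belongs to a segment linked to *Il21r* was not tested.

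The late pattern was set against day 7, whose libraries entered the filter on low values but not the test that called the 2137 genes. Of these, 1957 (91.6%) had the same sign on day 7, against 69.9% of all genes tested. By list, the G2/M median was −0.122 on day 7 and −0.462 late, the LZ median 0.105 and 0.629, and the BCL2 family median 0.608 and 1.23, whereas that of the memory list was 0.76 on day 7 and 0.904 late. *Irf4* was at −0.07 on day 7 and 0.73 late. No gene was called for a difference between the late and day 7 effects (0 of 11005 by edgeR's likelihood ratio test, 110 at an unadjusted p under 0.05). None was called between days 10 and 14 (0, with 59 unadjusted). The day 7 and late values set side by side are therefore descriptions. With 1 library of each genotype a day, only differences well beyond the 6-library spread could be called in these tests of a difference. That spread came from a model of genotype and a linear day, so it held the differences between days that were tested against it. The lack of calls therefore does not show that the effects of the days were alike.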

How the data were processed

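The deposited values are raw read counts per gene, which the authors made from single-end Illumina HiSeq 2000 reads of TruSeq libraries (CASAVA 1.8.2 per the labels), aligned to mm10 with Rsubread and summarized with featureCounts on its inbuilt RefSeq annotation after pooling technical replicates; handling of strand and of multi-mapping reads is not given in the sources used here. Reads of genes that overlap or of near-identical copies can therefore be split. The 4 libraries of days 10 and 14 were compared in edgeR 4.0.16 (R 4.3.3, limma 3.58.1), with TMM factors, the filters of the study's methods (average log2 CPM of at least 0 over 6 libraries, with Y genes, *Xist* and Ig variable genes left out, 11005 of 27179 genes kept), the model day plus genotype and a robust quasi-likelihood test, with Benjamini-Hochberg adjustment over all genes tested at 0.05. The common biological coefficient of variation was 8.51%. Deviations of the 2 libraries of a day from their genotype means correlated at 0.519. Labels give the replicates as days, and the block pairs libraries by day. Effects of a day and their differences came from likelihood ratio tests with dispersions from 6 libraries on genotype and a linear day. DESeq2 1.42.0 was an alternative. The code was tested on simulated data. CPM were computed from counts and the TMM factors of the 4 libraries. The text names *Il21r*, in each direction the 12 called genes of largest change with a mean of at least 10 CPM and 1 sign on both days, up to 4 called genes per list, and fixed GC genes; other genes were added after their values were seen, and some genes the rule names are not reported here. The members and lists were chosen with earlier results of these data known.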

Additional observations from a re-analysis of the deposited data

How the results depend on the processing

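Of 2137 genes called, 968 were called with 6-library dispersions, 1063 by DESeq2's Wald test, 190 with no replicate block and 3708 with the length offset, and between 275 and 978 when 1 library was left out, the extremes being the WT and the *Il21r*-/- library of day 14. Scaling by DESeq2 size factors, no filter, a filter of 10 counts and keeping the left-out genes stayed within 1.5 times. With the dispersion of the 4 libraries, day 10 gave 1017 calls and day 14 gave 1237, and leaving a library of another day out of the dispersion gave 267 to 418 on day 10 and 341 to 704 on day 14, the last without *Il21r*-/- on day 10. No alternative called a difference between days, and each took its spread from a model without such a difference. Under DESeq2 size factors the list medians of IL-21 receptor signaling (−0.00098) and of PI3K, AKT and mTORC1 (−0.000304) changed sign. With 1 library left out, medians ranged from −0.0736 to 0.125 for IL-21 signaling, −0.0715 to 0.25 for B cell receptor signaling, −0.0319 to 0.0264 for pro-apoptotic genes, −0.25 to 0.194 for oxidative phosphorylation and −0.145 to 0.127 for PI3K, AKT and mTORC1, and log2 fold changes from −0.54 to 0.0307 for *Bcl6*, −0.258 to 0.346 for *Cxcr4* and −0.0367 to 0.288 for *Myc*, so none of these holds a direction. Of 111 genes named by rule, 46 kept their side of the threshold without the block and 65 lost their call, and 92 kept it with 6-library dispersions; a call lost without the block is not a smaller effect. The cause of these changes was not tested. Depth was similar across libraries, and each genotype had a single library on each day.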

Other observations

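Cytokine receptors, taken by name after their values were seen, were mostly higher in *Il21r*-/- late in the response, 16 of 25 tested against 11.7% of all genes, with 2 lower and a median log2 fold change of 0.44. The 16 became 9 with the 6-library dispersions, 2 without the day block and 6, 8, 3 and 9 with WT day 10, *Il21r*-/- day 10, WT day 14 and *Il21r*-/- day 14 left out. *Lifr* had 1.38 and 0.669 CPM in WT and 13.4 and 4.47 CPM in *Il21r*-/- (3.08), *Il5ra* 6.03 and 5.06 CPM against 17.4 and 10.4 CPM (1.30), *Il10rb* 10.6 and 8.46 CPM against 20.9 and 19.8 CPM (1.10), *Il27ra* 2.73 and 3.58 CPM against 7.45 and 5.85 CPM (1.08) and *Ifngr2* 17.9 and 14.7 CPM against 37.7 and 30.5 CPM (1.07). The exception besides *Il21r* was *Il2rb*, the shared beta chain of the IL-2 and IL-15 receptors, with 109 and 69 counts in WT and 10 and 5 in *Il21r*-/- (−3.71, standard error 0.42, edgeR quasi-likelihood adjusted p = 3.9e-06). On day 7 *Il2rb* was at −2.00 and did not pass the test (edgeR likelihood ratio test, adjusted p = 0.0741).

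The sterol exporters *Abca1* and *Abcg1*, whose transcription sterols raise through liver X receptors, were higher, *Abca1* at 16.0 and 9.79 CPM in WT and 37.9 and 25.1 CPM in *Il21r*-/- (1.30, −0.11 on day 7) and *Abcg1* at 2.24 and 1.53 CPM against 12.8 and 11.0 CPM (2.66). Macrophages express both, and the part of the myeloid markers given in the report was not tested. Below the 10 CPM used for naming, *Ryr2* had 1 and 7 counts in WT and 347 and 324 in *Il21r*-/-, *Tanc2* 7 and 14 against 470 and 412, *Ccr4*, the receptor of *Ccl22*, 13 and 5 against 226 and 236, and *Ttn* 0 and 2 against 135 and 208, at least 42.0-fold higher on day 10 against a floor of 3 counts in that library.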
